A study of Mus musculus with 5 samples.

Results

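Genes that mark neutrophils, 10 in number, were followed across 5 RNA sequencing libraries of the mouse Lewis lung carcinoma (LLC) line. The genes were S100A8, S100A9, CSF3R, CXCR2, RETNLG, MMP9, IL1B, PTGS2, TREM1 and CLEC4D, chosen by name. All 10 were found among the 13979 gene symbols shared by the 3 tables used. The libraries were Control, BMN (the PARP inhibitor BMN673 alone), PAZA (a polymer that carries 5-azacytidine, an inhibitor of DNA methyltransferases, without BMN), BMN/PAZA low dose and BMN/PAZA high dose. In the combination, BMN was loaded into the PAZA carrier and given at 0.25 mg/kg (low dose) or 2 mg/kg (high dose). The paper's supplement labels the single agents that it compared with the low dose as 0.25 mg/kg. By the labels, the RNA came from cultured LLC cells exposed to the agents for 72 h. The study's methods instead give tumors, grown from LLC cells in young female C57BL/6 mice and collected the day after the final dose. Leukocyte, fibroblast and keratinocyte transcripts were present in each library. Each group had 1 library, so there is no replicate check, no p-value was computed, and neighbouring libraries in an order of levels cannot be said to differ. Whether 1 library stands for 1 tumor or for a pool is not given in the sources used here.

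Neutrophils are short-lived granulocytes made in the bone marrow under the growth factor G-CSF. They leave the marrow and enter inflamed tissue along gradients of CXC chemokines. In tumors they can kill cells, remodel the matrix or restrain T cells, and the immature ones among them overlap with the cells called granulocytic myeloid-derived suppressor cells. Few of the 10 genes belong to neutrophils alone: monocytes and macrophages also make IL1B, PTGS2, CLEC4D, TREM1 and MMP9, and keratinocytes and some tumor cells can make S100A8 and S100A9. In bulk RNA, fewer neutrophils and less RNA of a gene per neutrophil cannot be told apart.

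Levels are deposited FPKM values, fragments per kilobase of transcript scaled to the library size, and rescaled so that the shared symbols of each library sum to 1000000. They are called scaled values below. The scale is per length, so levels of different genes can be set side by side. Differences are of log2(scaled value + 1), which understates the change of weakly expressed genes, and a difference of at least 1 is the size used for counting genes. The steps between low values put the depth at about 6160000 to 8730000 fragments per library, an estimate from genes with 1 transcript, since read counts were not used here.

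S100A8 and S100A9 are small calcium-binding proteins that pair as calprotectin, an abundant protein of the neutrophil cytosol and a danger signal once released. On the mouse genome (GRCm38, GENCODE M21), S100A8 lies on chromosome 3 from 90668978 to 90670035 on the plus strand and S100A9 from 90692632 to 90695721 on the minus strand, with 22596 bases between them. Their upstream sequences are shown because these were the members with the widest range of levels, and both were highest in the same library. Both are from RefSeq (GRCm38.p6), written 5′ to 3′ on the gene's own strand. They end at the base before the GENCODE start, at chr3:90668821-90668977 for S100A8 and chr3:90695722-90695971 for S100A9. Capitals mark a match to the PU.1 core GAGGAAG, read on the other strand, in S100A8 and to the C/EBP letters TTGCNNAA in S100A9. PU.1 and C/EBP proteins are the transcription factors that drive granulocyte development.
S100A8: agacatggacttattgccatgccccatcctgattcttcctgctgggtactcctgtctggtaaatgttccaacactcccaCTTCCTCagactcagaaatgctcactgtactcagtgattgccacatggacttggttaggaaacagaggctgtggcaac
S100A9: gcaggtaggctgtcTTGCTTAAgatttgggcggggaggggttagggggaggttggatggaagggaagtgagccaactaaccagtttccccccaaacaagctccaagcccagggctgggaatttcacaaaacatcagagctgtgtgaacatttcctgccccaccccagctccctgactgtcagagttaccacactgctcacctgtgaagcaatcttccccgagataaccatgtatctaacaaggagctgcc

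Promoter windows of 300 bases, 250 of them before the RefSeq start, were matched for 9 of the 10 members. The window of MMP9 was not among them. On both strands, GAGGAAG was in 3 of the 9 member windows (CLEC4D, CSF3R and S100A8) and in 13.6% of all 32851 windows. TTGCNNAA was in 3 (PTGS2, RETNLG and S100A9) and in 10.8% of all. The NF-kB half-site motif was in 3 (CSF3R, CXCR2 and PTGS2) against 50.8% of all, and the AP-1 letters TGANTCA were in 0 of the 9 against 7.81% of all. A match is a description of letters in the window and not of binding. None of these 4 motifs was in more than 3 of the 9 member windows.

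S100A8 had scaled values of 35.8 in Control, 31.5 in BMN, 67.8 in PAZA, 48.7 in BMN/PAZA low dose and 132 in BMN/PAZA high dose. S100A9 had 30.8, 24.4, 47.0, 66.8 and 93.2 in the same order. Both genes were lowest in BMN, next lowest in Control and highest in the high dose, and the 3 libraries with PAZA all lay above the 2 without it. The order of PAZA and the low dose differed between them: S100A8 was higher in PAZA and S100A9 was higher in the low dose, so the ratio of S100A8 to S100A9 was 0.728 in the low dose and between 1.16 and 1.44 elsewhere. From lowest to highest library, S100A8 spanned 4.17-fold and S100A9 3.81-fold. In rank, S100A8 went from the 74.7 percentile of all symbols in BMN to the 95.1 percentile in the high dose. The estimated number of fragments behind S100A8 was 66.5 in Control and 241 in the high dose, and behind S100A9 59.5 and 178.

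**Figure D1:**
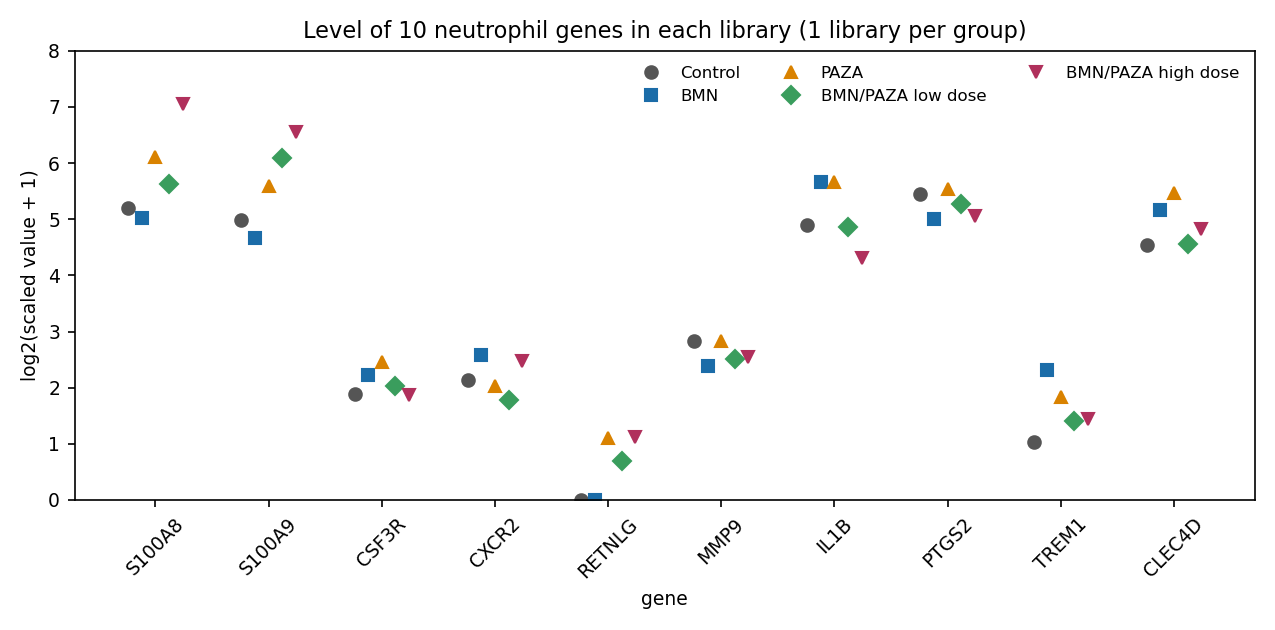
Levels of the 10 neutrophil genes, as log2(scaled value + 1) on the y axis, with 1 point per library and no error bars because each group has 1 library. S100A8 and S100A9 reach their highest points in BMN/PAZA high dose (132 and 93.2), and RETNLG is at 0 in Control and BMN.

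Neutrophil production and movement depend on 2 of the receptors. CSF3R (chr4:126024550-126044440, plus strand), the G-CSF receptor, had scaled values of 2.71 in Control, 3.66 in BMN, 4.46 in PAZA, 3.10 in the low dose and 2.64 in the high dose. CXCR2 (chr1:74153989-74161246, plus strand), the receptor for CXCL1, CXCL2 and related chemokines, had 3.42, 5.0, 3.08, 2.45 and 4.55. Both stayed low in all 5 libraries, near the 30.7 to 41.3 percentiles of all symbols, and they did not share an order. CSF3R was highest in PAZA and lowest in the high dose, where CXCR2 was the second highest. Their spans were 1.69-fold and 2.04-fold, and neither was past a log2 difference of 1 in any of the 8 comparisons.

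RETNLG (chr16:48872621-48874496, plus strand), a resistin-like secreted protein of mouse granulocytes, was listed at 0 in Control and in BMN, at 1.15 in PAZA, 0.609 in the low dose and 1.18 in the high dose. It was thus seen in the 3 libraries with PAZA, but on an estimated 1.30 to 2.61 fragments, so its absence from the other libraries was not detectable as a difference at this depth, and no fold is given. MMP9 (chr2:164940780-164955850, plus strand), the gelatinase stored in neutrophil tertiary granules, had 6.07, 4.23, 6.13, 4.69 and 4.87. Of the 9 members with a value in every library its span was the narrowest, at 1.45-fold.

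IL1B (chr2:129364570-129371139, minus strand), the pro-inflammatory cytokine interleukin 1 beta, had scaled values of 28.7 in Control, 49.8 in BMN, 49.6 in PAZA, 27.9 in the low dose and 18.8 in the high dose. PTGS2 (chr1:150100031-150108227, plus strand), the inducible cyclooxygenase that makes prostaglandin precursors, had 42.6, 31.1, 45.4, 37.8 and 32.2. In the tables used here IL1B was thus high with each single agent and lowest in the high dose, the library in which S100A8 and S100A9 were highest. PTGS2 spanned 1.46-fold, with BMN and the high dose lowest. The IL1B and PTGS2 values of PAZA and of the low dose depend on which table they are read from, so each difference given for these genes with either library carries that limit.

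TREM1 (chr17:48232768-48246924, plus strand), a surface receptor that amplifies inflammatory signals in neutrophils and monocytes, had scaled values of 1.06 in Control, 4.0 in BMN, 2.58 in PAZA, 1.64 in the low dose and 1.73 in the high dose. CLEC4D (chr6:123262111-123275265, plus strand), a C-type lectin that recognises fungal and mycobacterial glycans, had 22.3, 34.9, 43.2, 22.6 and 27.3. For both, Control was the lowest library and the 2 single agents were the highest, with the combinations between. TREM1 spanned 3.78-fold and CLEC4D 1.93-fold. TREM1 rested on an estimated 11.8 fragments in Control and 54.4 in BMN.

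The members therefore did not vary as 1 group. By library, 3 members were highest in BMN, 4 in PAZA and 3 in the high dose, and none were highest in Control or in the low dose in the tables used here. In both other tables that hold the low dose, its PTGS2 value (75.6 and 71.3) was above that of every other library, and in one of them its IL1B value (51.9) was too. The summed level of S100A8 and S100A9 was 66.6 in Control, 56.0 in BMN, 115 in PAZA, 115 in the low dose and 225 in the high dose. The other 8 members summed to 107, 133, 156, 101 and 93.3. With IL1B and PTGS2 from the other tables, a reading chosen after seeing the data, that sum was 158 or 160 in the low dose and 123 in PAZA, so the order of these libraries turned. S100A8 and S100A9 made up 29.7% of the members' sum in BMN and 70.7% in the high dose, and the sum of the other 8 was lowest in the high dose.

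BMN alone was compared with Control to see what the PARP inhibitor did by itself. TREM1 was higher, with a log2 difference of 1.28, IL1B was at 0.77, CLEC4D at 0.62, CXCR2 at 0.44 and CSF3R at 0.33. S100A8 was at -0.18, S100A9 at -0.32, and MMP9 and PTGS2 each at -0.44. Of the 9 members with a value, 1 was higher by at least 1 (TREM1), where 4.66% of 13704 symbols were, and 0 were lower, where 2.25% of symbols were. The median over the members was 0.33 and that over all symbols was 0.09.

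PAZA alone was compared with Control to show the effect of the carrier with its azacytidine. Of the 10 members 9 were above 0, with a median log2 difference of 0.68 where all symbols had -0.07. CLEC4D was at 0.92, S100A8 at 0.90, TREM1 at 0.80, IL1B at 0.77, S100A9 at 0.59, CSF3R at 0.56, PTGS2 at 0.09 and MMP9 at 0.01, and CXCR2 was at -0.12. RETNLG alone was past 1, from a Control value of 0, so 1 of 10 members was higher where 3.47% of symbols were and 0 were lower where 3.53% were. RETNLG apart, each of these differences was under 1, and those of PTGS2 and MMP9 were close to 0. Scaling by the median ratio put S100A8 (1.01) and CLEC4D (1.03) past 1. In the other table that holds PAZA, IL1B was at -0.10 and PTGS2 at -0.23 against Control. The sum of the 6 leukocyte markers (PTPRC, ITGB2, CD53, LAPTM5, CORO1A and LCP1) was 1.12-fold that of Control in PAZA. The sum of 6 fibroblast markers was 1.70-fold, with 6 of 6 above 0 and a median difference of 0.65. The part of either in the member differences was not tested.

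In the low dose, S100A9 was at 1.09 against Control, S100A8 at 0.43 and TREM1 at 0.36, whereas CXCR2 was at -0.36, MMP9 at -0.31 and IL1B at -0.04. The 1 member of 10 that was higher by at least 1 (S100A9) stood against 3.65% of all symbols, and the 0 that were lower against 3.54%. The median over the members was 0.08. RETNLG was at 0.609 here and listed at 0 in Control, a difference that passes 1 with a pseudocount of 0.1. With the other table of the low dose, IL1B was at 0.82 and PTGS2 at 0.71 against Control, and the median was 0.38.

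In the high dose, S100A8 was 3.67-fold and S100A9 3.03-fold the Control level, with log2 differences of 1.85 and 1.57. TREM1 was at 0.41, CXCR2 at 0.33 and CLEC4D at 0.28, whereas IL1B was at -0.58, PTGS2 at -0.39, MMP9 at -0.27 and CSF3R at -0.03. With RETNLG, 3 of 10 members were higher by at least 1 where 3.2% of symbols were, and 0 were lower where 4.95% were. The median of the members was 0.30 and that of all symbols -0.17. The high dose thus held more S100A8 and S100A9 mRNA than Control, while none of the receptors and inflammatory mediators was past 1 in either direction.

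**Figure D2:**
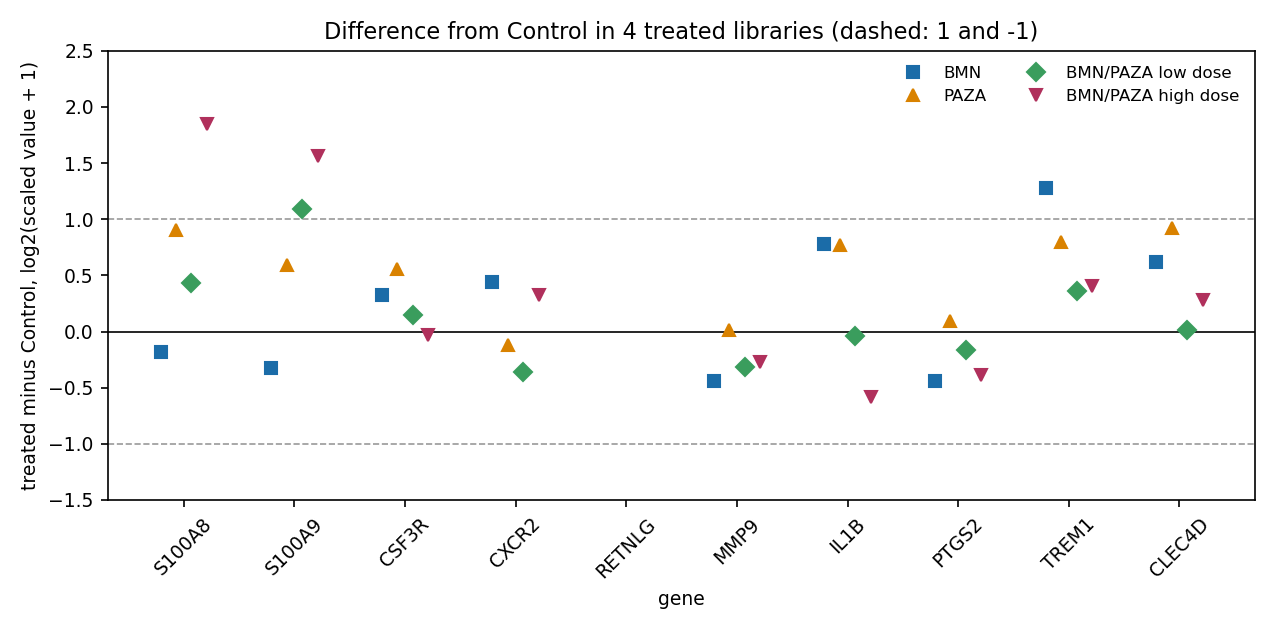
Log2 difference of each treated library from Control on the log2(scaled value + 1) scale for 9 members, with dashed lines at 1 and -1. RETNLG is not drawn because Control is listed at 0, and the highest points are S100A8 (1.85) and S100A9 (1.57) in BMN/PAZA high dose.

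S100A8, S100A9 and RETNLG have transcripts under 600 bases, and short transcripts spread widely in both directions. In the high dose against Control, 18.2% of 264 symbols with transcripts this short were higher by at least 1, where 3.2% of all symbols were, and 13.6% were lower, where 4.95% of all were. Among all symbols S100A8 was at the 99.5 percentile of the difference and S100A9 at the 99.1 percentile, and among the short ones they were at the 93.9 and 90.9 percentiles. The part of transcript length in the S100A8 and S100A9 difference was not tested. Against Control, 21.0% of short symbols were higher and 8.86% lower in PAZA, 19.1% and 11.7% in the low dose, and 11.3% and 16.7% in BMN. The median difference of short symbols was 0.31 in PAZA, 0.24 in the low dose, 0.08 in the high dose and -0.18 in BMN. Among them S100A8 was at the 74.9 percentile in PAZA, 59.8 in the low dose and 49.8 in BMN, and S100A9 was at 61.3, 83.2 and 41.6, so outside the high dose both were nearer to the middle of the short symbols.

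The low dose was set against each single agent, labelled with the same dose in the paper's supplement, to show what the second agent added. Low dose against BMN, S100A9 was at 1.41 and S100A8 at 0.61, whereas TREM1 was at -0.92, IL1B at -0.81, CXCR2 at -0.80 and CLEC4D at -0.60. One member (1 of 10) was higher by at least 1 where 3.22% of symbols were, and 0 were lower where 5.86% were. In the table that holds BMN and the low dose together, PTGS2 was at 1.39 and IL1B at 0.13, so that 2 members were higher by at least 1. Of the symbols with short transcripts 25.7% were higher by at least 1 here, with a median of 0.45, and S100A8 was at the 58.6 and S100A9 at the 85.8 percentile of them. The median of the members was -0.03, with the calprotectin genes above 0 and the activating receptors below. Low dose against PAZA, 9 of 10 members were below 0, with a median of -0.42 where all symbols had 0.03. CLEC4D was at -0.91, IL1B at -0.81 and S100A8 at -0.47, and S100A9 was above 0, at 0.50. In the table that holds these 2 libraries together, IL1B was at 0.86 and PTGS2 at 0.88, both above 0, so that 7 of 10 members were below 0, with a median of -0.33. None (0 of 10) were past 1 in either direction, where 2.45% of symbols were higher and 2.78% were lower. These comparisons share the low-dose library, and those with Control share the Control library, so they are not independent of each other.

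High dose against BMN, S100A8 was 4.17-fold and S100A9 3.81-fold, with log2 differences of 2.03 and 1.89. The paper's supplement labels BMN alone as 0.25 mg/kg, and the high dose was 2 mg/kg. This comparison thus changes the BMN dose as well as adding PAZA, and the parts of the 2 cannot be told apart. IL1B was at -1.36 and TREM1 at -0.88. Higher by at least 1 were 3 of 10 members (with RETNLG, listed at 0 in BMN), where 2.33% of symbols were higher, and 1 (IL1B) was lower where 6.89% were. The median of the members was -0.03 against -0.27 over all symbols. Among symbols with short transcripts, 25.0% were higher and 9.85% lower by at least 1 in this comparison, and S100A8 and S100A9 were at the 93.6 and 92.0 percentiles of these. BMN was the library with the lowest S100A8 and S100A9 and the highest IL1B and TREM1, so the contrast between the 2 kinds of member was widest here.

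Between the doses, low against high, S100A8 was at -1.42, CXCR2 at -0.69 and S100A9 at -0.47, and IL1B was at 0.55. Here 0 of 10 members were higher by at least 1 where 3.38% of symbols were, and 1 (S100A8) was lower where 2.34% were. Of the symbols with short transcripts 17.7% were higher and 14.0% lower, and S100A8 and S100A9 were at the 8.12 and 22.9 percentiles of these. With the other table of the low dose, IL1B was at 1.40 and PTGS2 at 1.10, so that 2 members were higher. The median of the members was -0.15 and that of all symbols 0.13. On the common scale S100A8 and S100A9 were both lower in the low dose, but by unequal amounts. With the values as deposited in the table of both doses, where the low-dose column is multiplied, 7 members were higher and 0 lower. The median of the members was then 1.28 and that of all symbols 1.44, with S100A8 at 0.26.

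Most of the defining granule genes of neutrophils were at or near 0 in the libraries whose tables list them. Of 13 granule genes 4 were among the shared symbols: LCN2, MMP8, CHIL3 and CD177. MMP8 and CHIL3 had levels on a par with the members CSF3R, CXCR2 and MMP9. In the table with the most rows, which holds BMN and the low dose, 7 of the 13 were listed at 0 in both libraries, namely MPO, ELANE, PRTN3, CAMP, NGP, ITGB2L and LY6G. MPO (myeloperoxidase) and ELANE (neutrophil elastase) are made in marrow precursors, and LY6G is the surface marker by which mouse neutrophils are sorted. LY6G is listed in tables of BMN and the 2 combinations, and of these 3 libraries it was above 0 in the high dose alone, at 0.385 FPKM. In the high dose 1 fragment of a 1 kb transcript is worth about 0.16 FPKM. The LY6G value is thus near the floor, and a 0 elsewhere cannot be called absence. LTF (lactoferrin, of the secondary granules) was also highest in the high dose, at 0.930 FPKM, among the 4 libraries whose tables list it. The highest value of CTSG (cathepsin G) in any table was 0.344 FPKM and that of CXCR1 0.108 FPKM. LY6G and LTF have no Control value to set these against. Other markers had another order: PGLYRP1, a peptidoglycan recognition protein of neutrophil granules named here after its values were seen, was listed at 0 in the high dose, BMN and PAZA and at 0.288 FPKM in the low dose in the table with BMN, and CD177, a neutrophil surface protein, had scaled values of 0.870 in PAZA, its highest, and 0.403 in the high dose.

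The 4 granule genes that were measured did not share 1 order. CHIL3, a chitinase-like protein of marrow neutrophils and of macrophages, had 1.85 in Control, 7.88 in BMN, 2.51 in PAZA, 4.18 in the low dose and 3.91 in the high dose, and was past 1 in BMN (1.64). LCN2 (neutrophil gelatinase-associated lipocalin) was 1.71 in Control, 1.32 in PAZA, its lowest, and 2.71 in the high dose, its highest, as for S100A8 and S100A9. MMP8 (neutrophil collagenase) was between 3.18 in the high dose and 5.44 in the low dose. Neither LCN2 nor MMP8 was past 1 against Control in any library. The sum of the 4, with CD177, was 2.04-fold Control in BMN, where S100A8 and S100A9 were lowest, and 1.44-fold in the high dose.

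Of 18 genes of mature neutrophils, 15 were among the shared symbols. Against Control, 1 was higher by at least 1 and 2 lower in BMN, 2 and 2 in PAZA, 2 and 2 in the low dose, and 2 and 1 in the high dose (14 of the 15 had a value in BMN), where 2.25% to 4.95% of all symbols were past 1 in each direction. The list medians were 0.26, 0.43, 0.46 and 0.23. WFDC21, a whey-acidic-protein family member, was listed at 0 in Control and BMN, at 1.84 in PAZA, 5.80 in the low dose and 1.85 in the high dose. The number of fragments behind WFDC21 was not estimated. STFA2L1, a stefin of myeloid cells, was between 5.20 and 7.16 in 4 libraries and listed at 0 in PAZA. ACOD1, which makes itaconate in activated myeloid cells, was highest in Control, at 12.7, and lower by 1.05 to 2.03 on the log2 scale in all 4 treated libraries, at 2.34 to 5.61.

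Signals that make and attract neutrophils were read from a list of 13 genes, 10 of them among the shared symbols. CSF3, which encodes G-CSF, was listed at 0 in the largest table. Against Control, 1 of the 10 was higher by at least 1 and 1 lower in BMN, 2 and 0 in PAZA, 1 and 0 in the low dose, and 1 and 1 in the high dose, against the same shares of all symbols, with medians of -0.18, 0.16, 0.01 and 0.37. PPBP, the precursor of the CXCR2 ligand CXCL7, was 11.9 in Control, 23.1 in BMN, 36.5 in PAZA, 25.0 in the low dose and 32.8 in the high dose. It was higher in each treated library, by 0.90, 1.54, 1.01 and 1.38 on the log2 scale. CXCL5, another CXCR2 ligand, was 1.08 in Control and 11.1 in BMN, a log2 difference of 2.54, and 2.04 to 2.91 in the other libraries. CSF2, the growth factor GM-CSF, was 8.89 in Control and 1.64 in BMN, a log2 difference of -1.91. IL6 was 0.522 in Control and 3.25 in PAZA, a log2 difference of 1.48, but its low-dose value differed between tables. BMN thus had the highest CXCR2 and CXCL5 of the 5 libraries and the lowest CSF2.

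The receptors and partners of the members are the calprotectin receptor TLR4, the IL1B receptor chain IL1R1, its antagonist IL1RN and its processing enzyme CASP1, the prostaglandin synthase PTGES, the MMP9 inhibitor TIMP1, and TYROBP, FCER1G, SYK and CARD9, which carry signals of TREM1 and CLEC4D, among others. Of 16 genes 15 were measured and 0 were past 1 in either direction against Control in any of the 4 treated libraries, where 2.25% to 4.95% of all symbols were in each direction, so a count of 0 among 15 lies near that background. The low-dose value of CASP1 depends on the table: other tables put it at 1513 and 648 on the common scale, in place of 432. These are log2 differences of 1.46 and 0.24 from Control. The list medians were 0.19 in BMN, 0.00 in PAZA, -0.02 in the low dose and -0.28 in the high dose. TIMP1 had the highest level of any member partner other than CASP1 in PAZA, at 188 where Control had 104. FCER1G was 96.2 in Control and 52.2 in the high dose, a log2 difference of -0.87.

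Markers of other cell types moved with some of these results. The summed macrophage and monocyte markers (9 of 9 measured, none at 0) were 448 in Control, 580 in BMN, 487 in PAZA, 455 in the low dose and 370 in the high dose, and the summed leukocyte markers (6 of 6) were 227, 283, 255, 202 and 188. Both lists were highest in BMN, as were IL1B and TREM1, and lowest in the high dose, as was IL1B. In BMN 3 of the 9 macrophage and monocyte markers were higher than Control by at least 1, where 4.66% of all symbols were: LY6C2 at 1.56, CCR2 at 1.42 and ADGRE1 at 1.30. Of the 6 leukocyte markers, ITGB2 was (1.06). In the other 3 treated libraries 0 of either list were past 1 against Control, where 3.2% to 4.95% of all symbols were in each direction. The part of these cells in the IL1B and TREM1 differences was not tested. S100A8 and S100A9 were highest in the library with the lowest sums of both lists.

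Keratinocytes can also make S100A8 and S100A9. Their summed markers (9 of 11 measured) were 90.1 in Control, 341 in BMN, 18.6 in PAZA, 11.6 in the low dose and 23.5 in the high dose, so they were highest where S100A8 and S100A9 were lowest, and at 0.261-fold Control in the high dose. Against Control 6 of the 9 were higher by at least 1 in BMN, where 4.66% of all symbols were. In each of the 3 libraries with PAZA 6 were lower, where 3.53% to 4.95% of all symbols were. Summed fibroblast markers were 2.61-fold Control in BMN and 1.12-fold in the high dose, T cell markers 0.853-fold and 0.377-fold, and mast cell and basophil markers 4.25-fold and 0.581-fold. In BMN 6 of 6 fibroblast and 4 of 6 mast cell and basophil markers were higher than Control by at least 1, and in the high dose 0 of these were. The shares of all symbols were 4.66% and 3.2%. None of these 4 lists was highest in the high dose. Of the 9 keratinocyte markers 8 were below Control in the high dose and 1, SPRR1A, was above it, at 7.13 against 5.60. The part of any of these cells in the S100A8 and S100A9 differences was not tested. Of red blood cell markers 2 of 6, and of eosinophil markers 0 of 4, were among the shared symbols.

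**Figure D3:**
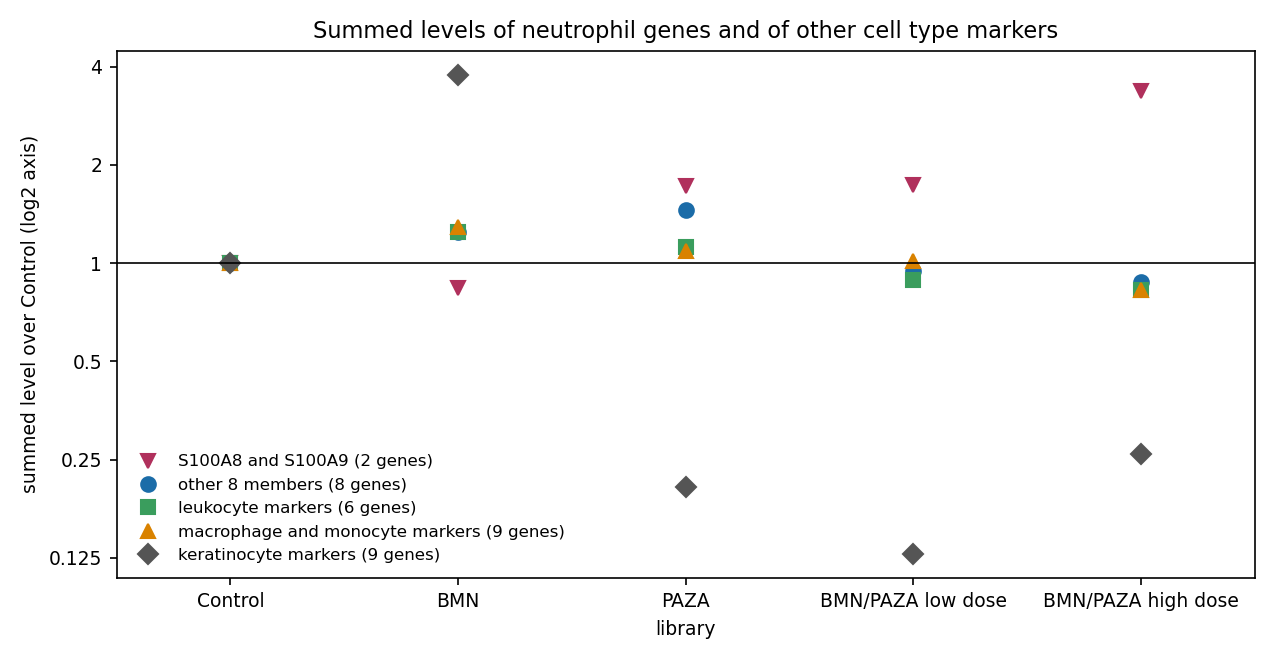
Summed scaled values of S100A8 and S100A9, of the other 8 members and of 3 lists of cell type markers, each divided by its Control value, on a log2 axis with 1 point per library. The sum of S100A8 and S100A9 is 3.37-fold Control in BMN/PAZA high dose, where the leukocyte, macrophage and keratinocyte sums are 0.826, 0.825 and 0.261-fold.

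The same library stands in several of the 5 deposited tables, so that each member could be read more than once. The tables were scaled separately, and a library's values in different tables differ by a constant, 1.01 for PAZA and 0.307 or 0.293 for the low dose. For 8 of the 10 members every repeated value kept this constant within 0.5%. IL1B and PTGS2 did not. In the table of BMN with the low dose, the low-dose IL1B value was 1.75 times and the PTGS2 value 2.0 times that given by the table of the 2 doses, which corresponds to 48.8 and 75.6 on the common scale in place of 27.9 and 37.8.

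In the table of PAZA with the low dose, the IL1B values of the 2 libraries were exchanged with respect to the tables used for the main values. They were not with respect to the table of BMN with the low dose, where low-dose IL1B was at 48.8 on the common scale. PAZA was listed at 15.6, the value that the constant gives for the low dose, and the low dose at 29.0, the value that it gives for PAZA. For PTGS2, PAZA was listed at the low-dose value of 21.1 and the low dose at 39.8, which is 1.5 times the PAZA value. On the common scale IL1B was then 26.7 in PAZA and 51.9 in the low dose, and PTGS2 was 36.1 and 71.3. The direction of the IL1B and PTGS2 differences between PAZA and the low dose therefore turned with the table used, and no source settles which table is right. Of 13142 symbols compared with the tables used for the main values, 12787 kept both values and 199 had a PAZA value equal to the low-dose value there. Among 88 list genes in the shared symbols, 3 were off a constant (FPR1, IL6 and CASP1).

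**Figure D4:**
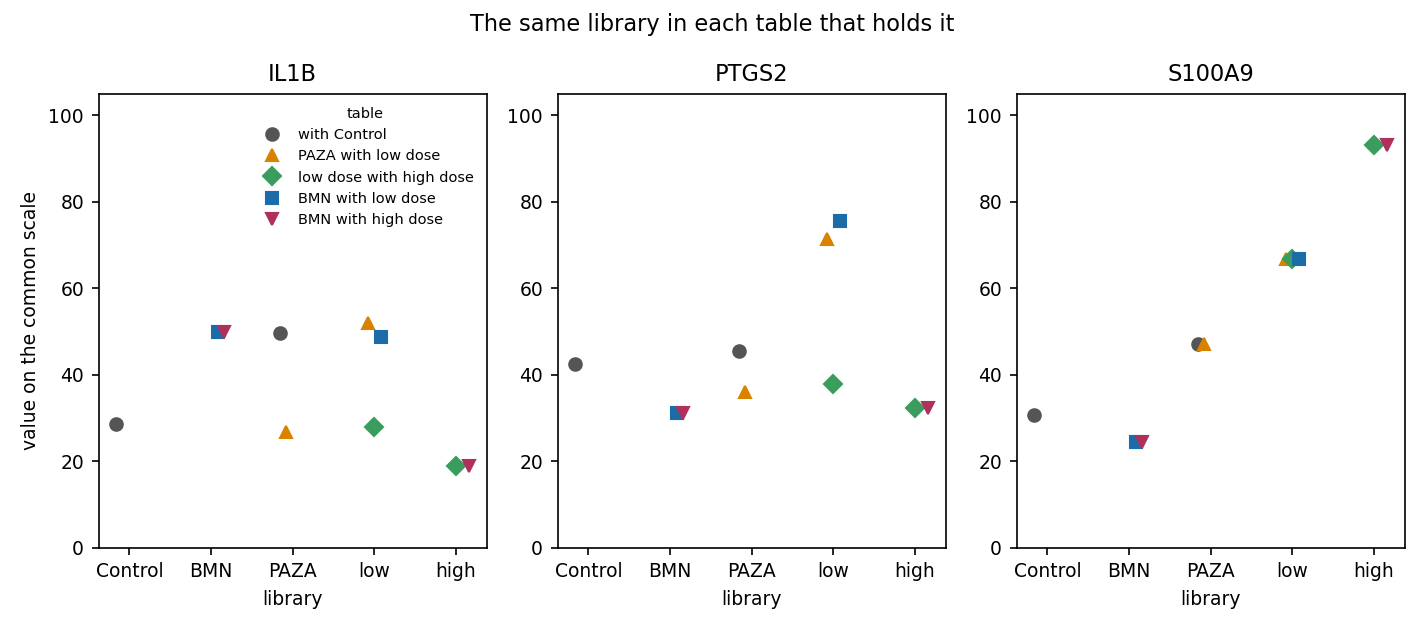
Values of IL1B, PTGS2 and S100A9 on the common scale, with 1 point for each table that holds a library, and marker shapes for the tables. The points of 1 library coincide for S100A9, whereas for IL1B the low dose stands at 27.9, 48.8 and 51.9 and PAZA at 49.6 and 26.7.

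The symbols whose pattern over the 5 libraries was nearest to the median profile of the members were found by the root mean square distance between profiles of log2(scaled value + 1), each centred on its own mean, among 11205 symbols with a mean scaled value of at least 1. The nearest 8 were MYO5B, S1PR1, MERTK, TMEM223, TEDC2, ZCCHC10, MCM3AP and ATF6B, at distances of 0.06 to 0.08 where the median symbol was at 0.35. All 8 were highest in PAZA, as that profile was. The members themselves lay at 0.12 (CSF3R) to 0.70 (S100A9), with S100A8 at 0.69, so the median profile described CSF3R and CLEC4D (0.21) far better than it did the calprotectin pair. With S100A8 as the reference, the nearest symbol was IL34, a ligand of the macrophage receptor CSF1R, at 0.12 with levels of 1.15, 1.08, 2.65, 2.33 and 6.54, and S100A9 came in place 28 at 0.36. The nearest 8 were IL34, CPT1B, SNAPC2, UCHL1, RNU11, SNORD13, ZFP940 and HACL1. Among these, RNU11 and SNORD13 are small noncoding RNAs. RNU11 was at 572 in Control and 2418 in the high dose, and SNORD13 at 275 and 1084.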

How the data were processed

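RNA was sequenced from 5 LLC groups with 1 library each. The submitters' processing notes name HISAT2 and StringTie, without versions, and the genome build GRCm38. The authors deposited 5 tables with 2 groups each. Their unit is not named in the files. The deposited values were taken to be FPKM that the authors made with these tools by scaling fragments to transcript length and library size, because the smallest steps between values follow transcript length. All columns were matched to a sample (0 were not). As the selection rule states, Control and PAZA were taken from one table, BMN and the high dose from the second and the low dose from the third. The row with the highest mean was used for a repeated symbol, and columns were scaled to 1000000 over the shared symbols. Differences used a pseudocount of 1. Genes at 0 in both libraries were left out of a comparison.

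The members and the 12 other lists were chosen with earlier results of these data known. Genes named outside the members were those past 1 against Control, at most 4 of a list by size of difference, the defining markers LY6G, MPO and ELANE, and the 8 nearest in pattern. LCN2, MMP8, CD177, LTF, CTSG, CXCR1, FPR1, CASP1 and the partners of the members were named after their values were seen, as were the symbols nearest to S100A8. Most genes of the cell type marker lists that the rule names are covered by the counts and sums of their lists. A further item that the rule names is not reported here. Alternatives were a pseudocount of 0.1, a minimum scaled value of 1, scaling by the median ratio or without the 50 highest symbols, sums of repeated rows, the other table of a library and the deposited values within a table. Leaving out IL1B and PTGS2, the comparison with short transcripts, and the sums and CASP1 values by table were added once values were known. Scripts ran in Python 3.11.15 with pandas 2.3.3 and numpy 2.4.6, with matplotlib 3.10.9 for figures, and were tested on simulated data. Columns of fold changes or p-values were not used here.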

Additional observations from a re-analysis of the deposited data

Results flagged for a closer look

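For 6 members the difference when BMN was added had the opposite sign without and with PAZA, and for 2 of them, IL1B and CLEC4D, it was at least 0.5 in size both times. The share of all symbols with opposite signs was not computed, so these counts have no background beside them. Of all symbols, 8205 of 13704 were above 0 without PAZA and 7521 of 13885 with it. IL1B was at 0.77 on the log2 scale in BMN against Control and at -0.81 in BMN/PAZA low dose against PAZA. CLEC4D was at 0.62 and at -0.91 in the same comparisons. The other 4 were TREM1 (1.28 and -0.44), CXCR2 (0.44 and -0.24), CSF3R (0.33 and -0.41) and S100A9 (-0.32 and 0.50). Each is 1 library against 1 library, and the difference between the 2 settings was not tested. The IL1B value of the second comparison has the other sign in the table that holds PAZA and the low dose together, whereas CLEC4D kept the constant between tables. PTGS2 was at -0.44 and -0.26 in the 2 comparisons, and at 0.88 in the second in that table. Which members have opposite signs thus depends on the table.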

How the results depend on the processing

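No paired analysis was possible because each group has 1 library. Of 522 member differences recomputed under the alternatives, 480 kept their direction and their side of 1, 25 changed sign from a value under 1 (21 of them ending under 1, and 4 past 1 in the table of both doses as deposited), 14 came past 1 with the same sign, 2 no longer reached 1 and 1 was reversed. S100A8 ranged from 1.85 to 2.09 and S100A9 from 1.57 to 1.81 in the high dose against Control, from 2.03 to 2.38 and from 1.89 to 2.24 against BMN. With a pseudocount of 0.1, 2 members were higher by at least 1 in PAZA and 2 in the low dose against Control, 2 were higher and 1 lower in the low dose against BMN, and 2 were lower in the high dose against BMN. With scaling by the median ratio, 3 were higher in PAZA and the median of the high dose against BMN was 0.29, as it was 0.27 without the 50 highest symbols. These scalings moved the median of all symbols by 0.18 in the high dose against Control and by 0.27 and 0.25 in the high dose against BMN. With the other table of each library, the low-dose median against Control was 0.38, 2 members were higher against BMN and 2 against the high dose. With the deposited values within a table, 0 were higher in PAZA against Control and 2 in the low dose and 2 in the high dose against BMN. In the table of both doses the low-dose column as deposited is multiplied, so that 7 members were higher and 0 lower than in the high dose. Their median was 1.28, where that of all symbols was 1.44, and S100A8 was at 0.26. Shares of all symbols past 1 were not computed under the alternatives, so the counts of members given here have no background beside them. Without IL1B and PTGS2, chosen after seeing the data, 0 were lower in the high dose against BMN. The absence of replicates, the unnamed unit and the estimated depth limit each of these values.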
